A study of Xenopus laevis with 3 samples.

Results

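Aquaporins are membrane channels that let water, and in some members glycerol, cross cell membranes along osmotic gradients. The classical members pass water, aquaglyceroporins such as Aqp3 also pass glycerol, and the unorthodox members Aqp11 and Aqp12 are known in mammals as channels of intracellular membranes. In the inner ear, water movement across the epithelia accompanies the ion transport that sets the volume and osmolarity of endolymph, the potassium rich fluid above the hair cells.

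The aquaporin Xl-PSIDs (probe sets of the GeneChip array for Xenopus laevis) were taken as those with exactly 1 gene symbol in the platform annotation whose symbol begins with aqp, with both homeologs kept. Homeologs, marked L and S, are the paired gene copies of this allotetraploid frog. The rule found 10 Xl-PSIDs of 32539 on the array besides controls, or of 15495 with 1 gene symbol, and they stood for 5 genes of 9240 named. These were aqp1 (2 Xl-PSIDs), aqp2 (2), aqp3 (2), aqp11 (3) and aqp12a (1). The 10 Xl-PSIDs were designed on 10 different sequence records.

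Inner ear RNA came from purchased juvenile frogs about 3 months of age and past metamorphosis, and the labels name no strain, allele or treatment. All 3 arrays belong to 1 group, and each replicate was a pool of 5, 5 and 6 animals for replicates 1, 2 and 3, so the spread given here is between pools and not between single animals. The mean weight of the animals was 9.0, 9.6 and 9.6 g and their mean length 4.6, 4.7 and 4.6 cm. The part of animal weight in differences between pools was not tested. Values are GCRMA intensities in arbitrary units on the log2 scale, and means are given ± SD over n = 3 arrays. Detection of an Xl-PSID required its mean to reach an intensity minimum of 4. The methods of the study asked for this average intensity before an Xl-PSID was designated upregulated, and its use for detection was chosen here. The median over all Xl-PSIDs was 7.57, 7.49 and 7.53 on replicates 1, 2 and 3. Precision is limited by having 3 arrays. Larval stages were not analysed here, so the results are levels and their spread, with no contrast between stages.

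For the label of the tissue 16 inner ear markers were looked at, of which 9 were measured. All 9 were detected, among them the otic transcription factors gata3 (10.29 ± 0.03), pax2 (10.49 ± 0.22) and sox2 (11.83 ± 0.17) and the gap junction protein gjb2 (14.89 ± 0.03). Of all named genes 80.2% had at least 1 detected Xl-PSID, so the count by itself is no check of the label. The calcium binding protein calb1, a hair cell marker, had the largest range of the list and read 9.35, 7.58 and 6.96 on replicates 1, 2 and 3.

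Transcripts for aqp1, aqp3 and aqp11 were found in the juvenile inner ear, and those for aqp2 and aqp12a did not reach the minimum. The call for aqp1 rests on 1 Xl-PSID whose probes can match several transcripts by its suffix (_a_at). The suffixes _a_at, _s_at and _x_at were treated alike, and whether those transcripts come from 1 gene was not checked. Without such Xl-PSIDs aqp3 and aqp11 remained as 2 detected aquaporin genes. Of the 10 Xl-PSIDs 5 were detected, against 64.4% of all Xl-PSIDs and 72.8% of those with 1 symbol. The same 5 were at 4 or more on each of the 3 arrays. They also passed a one-sided limma test for a mean over 4, adjusted by Benjamini-Hochberg over all Xl-PSIDs, which 62.2% of all Xl-PSIDs passed. At the gene level 3 of 5 aquaporins had at least 1 detected Xl-PSID, where 80.2% of all named genes did. No member lay close to the minimum on its upper side, since the detected means ran between 8.97 and 13.77. Intensities of different Xl-PSIDs depend on the affinity of their probes, so the members were set against the minimum and not ranked against each other.

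**Figure D1:**
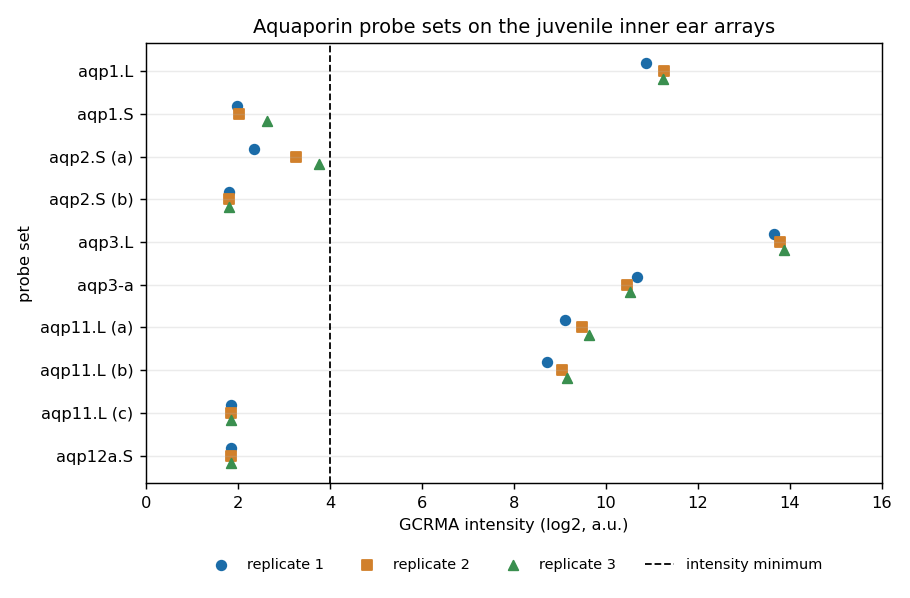
GCRMA intensity (log2, a.u.) of each of the 10 aquaporin Xl-PSIDs on the 3 replicate arrays, with the intensity minimum of 4 as a dashed line and letters a to c for Xl-PSIDs of 1 gene by falling mean. The points of 5 Xl-PSIDs lie above 8 on every array and those of the other 5 lie below 4 on every array.

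Aqp3, an aquaglyceroporin found in the basal and lateral membranes of mammalian epithelia, was the gene with every Xl-PSID detected. The Xl-PSID for aqp3.L read 13.66, 13.79 and 13.87 on replicates 1, 2 and 3, with a mean of 13.77 ± 0.11 (adjusted p = 1.71e-05, limma). The Xl-PSID annotated as aqp3-a read 10.68, 10.45 and 10.51, with a mean of 10.55 ± 0.12 (adjusted p = 3.11e-05, limma). Their ranges between arrays were 0.21 and 0.23, yet replicate 1 was the lowest array for aqp3.L and the highest for aqp3-a. The name aqp3-a is a synonym of both aqp3.L and aqp3.S in the RefSeq gene table, and its gene ID has no entry there, so the homeolog it stands for was not settled. In the assembly Xenopus_laevis_v10.1 the gene next to aqp3.L is aqp7.L, and next to aqp3.S it is aqp7.S. Aqp7 is a further aquaglyceroporin, for which no Xl-PSID with a symbol was found.

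Aqp1, the water channel of red blood cells and of many endothelia and epithelia in mammals, gave values on either side of the minimum for its homeologs. The Xl-PSID for aqp1.L read 10.86, 11.25 and 11.24 on replicates 1, 2 and 3 and averaged 11.12 ± 0.22 (adjusted p = 6.84e-05, limma). The Xl-PSID for aqp1.S read 1.98, 2.02 and 2.63, a mean of 2.21 ± 0.37. Its 95% interval of 1.55 to 2.87, from the limma fit, lay wholly below 4. Thus aqp1.L was detected on every array and aqp1.S on none, while replicate 3 alone was raised for aqp1.S. The probes of the Xl-PSID for aqp1.L can match several transcripts. A range of 0.65 as seen for aqp1.S was wide at this level, since the 95th percentile of the range was 0.41 among the 4825 Xl-PSIDs with a mean of at least 2 and under 2.5. Probe sequences were not used here, so whether the probes of one homeolog also bind the transcript of the other was not tested.

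Markers of blood and vessels were set beside aqp1. Of the erythrocyte markers all 6 measured of 9 listed were detected, including the globins hba1 (13.30 ± 0.33) and hbg1 (15.18 ± 0.03), the heme synthesis enzyme alas2 (10.06 ± 0.11) and the anion exchanger slc4a1 (10.03 ± 0.06). The log2 values of these 6 summed to 63.0, 63.5 and 63.1 on replicates 1, 2 and 3. The membrane protein gypc had the largest range of the list and read 5.77, 6.27 and 6.49. Of the endothelial markers all 3 measured of 8 were detected, namely the adhesion molecule pecam1 (6.51 ± 0.39), which had the largest range, the receptor tek (6.88 ± 0.11) and the secreted factor egfl7 (12.95 ± 0.06), with sums of 26.3, 26.1 and 26.7. Each marker named here read above 4 on all arrays. Of all named genes 80.2% had at least 1 detected Xl-PSID, so the counts by themselves are no result about either kind of cell. The part of blood and vessels in the aqp1 signal was not tested.

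Aqp11, known in mammals as a channel of the endoplasmic reticulum, had 3 Xl-PSIDs, all annotated to the L homeolog. The first (a) read 9.10, 9.47 and 9.63 on replicates 1, 2 and 3, with a mean of 9.40 ± 0.27 (adjusted p = 0.000163, limma). The second (b) read 8.72, 9.05 and 9.15, with a mean of 8.97 ± 0.23 (adjusted p = 0.000135, limma). The third (c) read 1.85 on each of the arrays, at the floor of the scale. The detected Xl-PSIDs ordered the arrays alike, with replicate 1 lowest and replicate 3 highest, and their ranges were 0.53 and 0.43. Xl-PSIDs of the same gene fell on opposite sides of the minimum for aqp1 and aqp11, which is 2 of the 4 aquaporin genes with several Xl-PSIDs. Over all such genes 32.4% were divided in this way.

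Aqp2 is the water channel that vasopressin controls in the mammalian collecting duct. Its Xl-PSID a read 2.35, 3.26 and 3.76 on replicates 1, 2 and 3, a mean of 3.12 ± 0.72, and Xl-PSID b, whose probes can match several transcripts, read 1.81 on every array. The range of 1.42 for Xl-PSID a, a 2.67-fold difference on the linear scale, was the widest of the 10 members. The order again ran with replicate 1 lowest and replicate 3 highest, and the 95% interval of the mean (1.82 to 4.42, limma) included the minimum. Aqp2 was therefore not detected by the rule, with the mean of 1 Xl-PSID not separated from 4 by 3 arrays. GCRMA compresses differences near its floor, so folds in this region are less certain than at higher intensity. Of Xl-PSIDs not detected, 10.3% had a mean of 3 or more and 3.47% had a range of 1 or more. At the level of Xl-PSID a the range is wider than nearer the floor. Among the 619 Xl-PSIDs with a mean of at least 3 and under 3.5 its median was 0.47 and its 95th percentile 1.74, so 1.42 lay within that band. In the same assembly aqp2.S lies between aqp5.S and aqp-x3, with aqp-xl2 on the far side of aqp5.S, and none of these 3 neighbours had an Xl-PSID with a symbol.

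Aqp12a, an unorthodox member known in mammals from the acinar cells of the pancreas, read 1.84, 1.84 and 1.85 on replicates 1, 2 and 3 (mean 1.84 ± 0.00). Mip, the aquaporin of lens fibre cells, lies outside the rule by its symbol (the only one measured of 3 further names searched). It read 1.96, 1.96 and 1.97 for mip.L and 1.98 on each array for mip.S. These Xl-PSIDs, like those of aqp2.S (b) and aqp11.L (c), differed by less than 0.01 between arrays. The median of the mean over all Xl-PSIDs below the minimum was 2.04.

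Spread between the pools was then examined for the members. None of the 10 Xl-PSIDs had a range of 1.5 or more, which 2.36% of all Xl-PSIDs and 2.89% of the detected ones reached. This difference minimum was borrowed from the study, whose methods set 1.5 as the minimum fold change between stages. Here it was applied on the log2 scale, while the methods do not state the scale of their minimum. In the paper's list of Xl-PSIDs changed in all pairwise comparisons no log2 fold change is smaller in size than 1.5. A range between replicate pools of the same stage is a different measure. The median range of the 5 detected members was 0.39, and that of all detected Xl-PSIDs was 0.37. Their SD lay between 0.11 and 0.27, with a median of 0.22, against a median of 0.20 for all detected Xl-PSIDs. These medians lay close together, but the range between arrays mostly fell with rising intensity. In the same bin of mean intensity the median range of all Xl-PSIDs was 0.31 for aqp1.L, whose own range was 0.39. It was 0.40 and 0.42 for aqp11.L (a) and (b), with ranges of 0.53 and 0.43. For aqp3.L it was 0.18 against a range of 0.21, and for aqp3-a, the only one below its bin, 0.33 against 0.23.

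**Figure D2:**
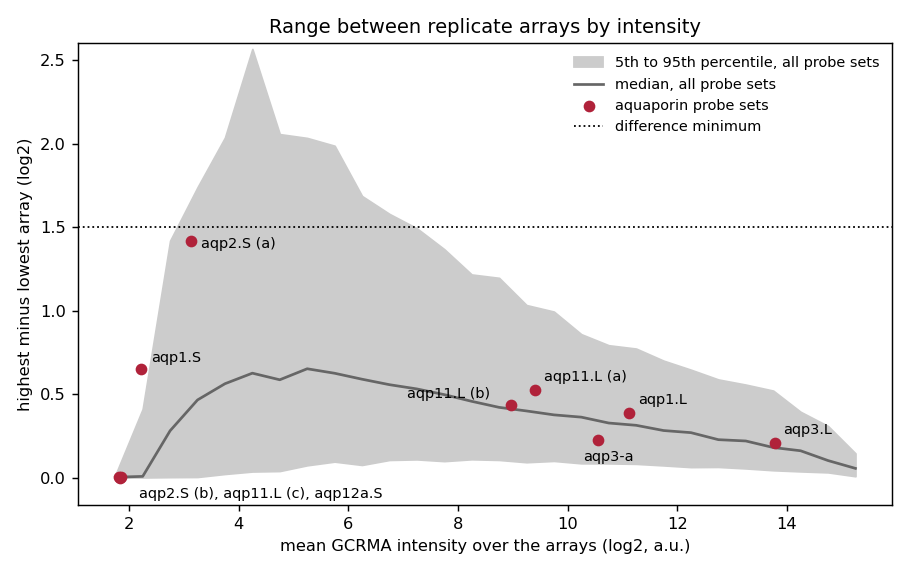
Highest minus lowest array (log2) against the mean intensity (log2, a.u.), with the 10 aquaporin Xl-PSIDs as red points, the median of all Xl-PSIDs in bins of mean intensity as a line, their 5th to 95th percentile as grey shading and the difference minimum of 1.5 as a dotted line. Aqp2.S (a) at 1.42 lies nearest the dotted line, and aqp1.S at 0.65 lies above the shading.

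The direction of these small differences was alike for most detected members, while the 2 aqp3 Xl-PSIDs were divided. Replicate 1 was the lowest array for 4 of the 5 detected Xl-PSIDs, where 30.6% of all detected Xl-PSIDs had it lowest, and aqp3-a was the exception. Replicate 3 was the highest for 3 of the 5, where 33.5% of all detected Xl-PSIDs had it highest. The difference of replicate 3 minus replicate 1 was 0.53 and 0.43 for the aqp11.L Xl-PSIDs and ran between -0.17 for aqp3-a and 0.53, with a median of 0.37, while the median over all detected Xl-PSIDs was -0.01. Replicate 2 minus replicate 1 had a median of 0.33 over the detected members and of -0.01 over all detected Xl-PSIDs, and replicate 3 minus replicate 2 had medians of 0.09 and 0.01. The 5 Xl-PSIDs are not independent, as they stand for 3 genes, and no test was made of 1 array against the others. All 5 undetected members also had replicate 1 lowest and replicate 3 highest, most of them by less than 0.01, and among all undetected Xl-PSIDs 65.1% had replicate 1 lowest and 77.5% had replicate 3 highest. In whole tissue a lower value on 1 pool can come, among other sources, from fewer cells of a type or from less RNA per cell, and these cannot be told apart.

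The neuron markers looked at ran the other way between these pools than most detected aquaporins did. Of the 8 neuron markers 7 were highest on replicate 1 and 8 lowest on replicate 3, and the log2 values of the 8 summed to 83.8, 77.0 and 72.0 on replicates 1, 2 and 3. The shares of all detected Xl-PSIDs highest on replicate 1 or lowest on replicate 3 were not computed. Replicate 3 was above replicate 1 for 48.6% of all detected Xl-PSIDs. The axonal neurofilament nefl read 11.70, 10.53 and 10.23, and nefm read 11.91, 10.11 and 10.07. The synaptic gene snap25 read 13.60, 13.29 and 12.99. Syn1, of largest range, read 5.70, 3.57 and 3.10, and its mean of 4.13 did not pass limma (adjusted p = 0.680). The axonal filament prph read 7.91, 8.01 and 6.77. The inner ear markers shared this lean only in part. Of the 9 measured 6 were highest on replicate 1 and 1 was lowest there, where 30.6% of all detected Xl-PSIDs had it lowest. Replicate 3 was lowest for 4 of them and highest for 3 (gata3, sox2 and gjb2), where 33.5% of all detected Xl-PSIDs had it highest. Their log2 values summed to 100.5, 97.3 and 96.8. Calb1, of largest range, read 9.35, 7.58 and 6.96, so 1 gene weighs on these sums. The paper reports that every replicate used on the arrays reached its minimum RNA integrity number. The 5′ minus 3′ difference of the gapdh control, which can fall with RNA degradation, was -1.13, -1.04 and -1.36. That of the ef1a control was -3.13, -3 and -3.87 on replicates 1, 2 and 3. The cause of these differences was not tested. Replicate 3 was thus lowest for the neuron list and for each of these controls. Among the detected aquaporins it was highest for aqp3.L and aqp11.L (a) and (b), while aqp1.L was highest on replicate 2 and aqp3-a on replicate 1. The undetected members, with aqp1.S and aqp2.S (a), were highest on replicate 3, as were 77.5% of all undetected Xl-PSIDs. Skeletal muscle markers were also highest on replicate 3 for 6 of 8 and lowest there for 2, and their log2 values summed to 73.7, 69.8 and 81.1. Of all detected Xl-PSIDs 33.5% were highest on replicate 3. The part of nerve and muscle content and of RNA quality in the aquaporin values was not tested.

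**Figure D3:**
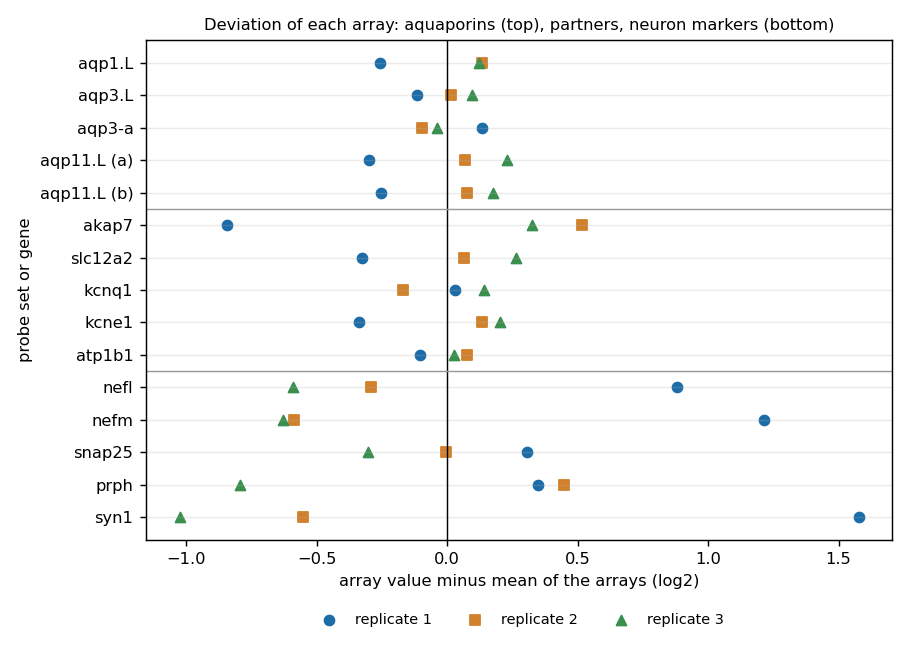
Value of each array minus the mean of the 3 arrays (log2) for the 5 detected aquaporin Xl-PSIDs (top), further genes (middle) and neuron markers (bottom). The middle genes are slc12a2, kcnq1, kcne1 and atp1b1 of the endolymph transport list and akap7 of the partner and regulator list. Akap7 is the only gene drawn of its list, in which replicate 1 was lowest for 2 of 7 measured genes and highest for 4. Replicate 1 lies left of 0 for 4 of the 5 aquaporin Xl-PSIDs and right of 0 for each neuron marker shown.

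Epithelial ion transport supplies the osmotic gradients that aquaporins follow. This and the other gene lists describe the tissue, and over all lists together 78 of 97 measured genes (80.4%) were detected, close to the 80.2% of all named genes, so the counts per list are no result about a path. Of 18 endolymph transport genes 13 were measured and 11 detected. They included the cotransporter slc12a2 (8.66, 9.05 and 9.25 on replicates 1, 2 and 3, the largest range of the list), the potassium channel kcnq1 (11.51 ± 0.16), its subunit kcne1 (5.17, 5.64 and 5.71) and the sodium pump subunit atp1b1 (14.31 ± 0.10). Among the 11 detected genes replicate 1 was lowest for 6 and highest for 3, and replicate 3 was highest for 5, where 30.6% of all detected Xl-PSIDs had replicate 1 lowest and 33.5% had replicate 3 highest. The proton pump subunits atp6v1b1 and atp6v0a4 were not detected.

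Proteins that bind or place aquaporins in mammalian cells were represented by 7 measured genes of 13, and all 7 were detected. Dystroglycan, dag1 (12.23 ± 0.11), and the potassium channel kcnj10 (10.67 ± 0.27) accompany Aqp4 in glial membranes. The membrane linker ezr (10.59 ± 0.12) and the galectin lgals3 (11.63 ± 0.08) were also found. The anchoring protein akap7, which in mammals tethers protein kinase A near Aqp2 vesicles, had the largest range of this list and read 8.86, 10.22 and 10.03 on replicates 1, 2 and 3. Replicate 1 was lowest for 2 of the 7 genes, akap7 and ezr, and highest for 4, and replicate 3 was highest for 0 of the 7. Of all detected Xl-PSIDs 30.6% had replicate 1 lowest and 33.5% had replicate 3 highest. Aqp4 itself, the aquaporin of supporting cells in the mammalian ear, had no Xl-PSID with its symbol and was not analysed here.

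Vasotocin, the amphibian relative of vasopressin, acts on water channels through receptors that raise cyclic AMP. Its receptors had no Xl-PSID with a symbol, and 8 of 16 genes of this path were measured, of which 6 were detected. The G protein subunit gnas (13.12 ± 0.09), the kinase subunit prkaca (11.89 ± 0.10) and the transcription factor creb1 (11.56 ± 0.30), which had the largest range, were detected. The adenylyl cyclases adcy6 (2.84 ± 0.12) and adcy9 (2.15 ± 0.09) were not.

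Aquaglyceroporins also carry glycerol, and 4 of the 6 measured glycerol genes (of 7) were detected. These included the glycerol kinase gk (7.51, 7.55 and 8.06 on replicates 1, 2 and 3), the glycerol phosphate dehydrogenase gpd1 (11.56 ± 0.36), with the largest range, and gpd1l (10.19 ± 0.20). The mitochondrial enzyme gpd2 (2.51 ± 0.01) and the hormone sensitive lipase lipe were not detected.

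**Figure D4:**
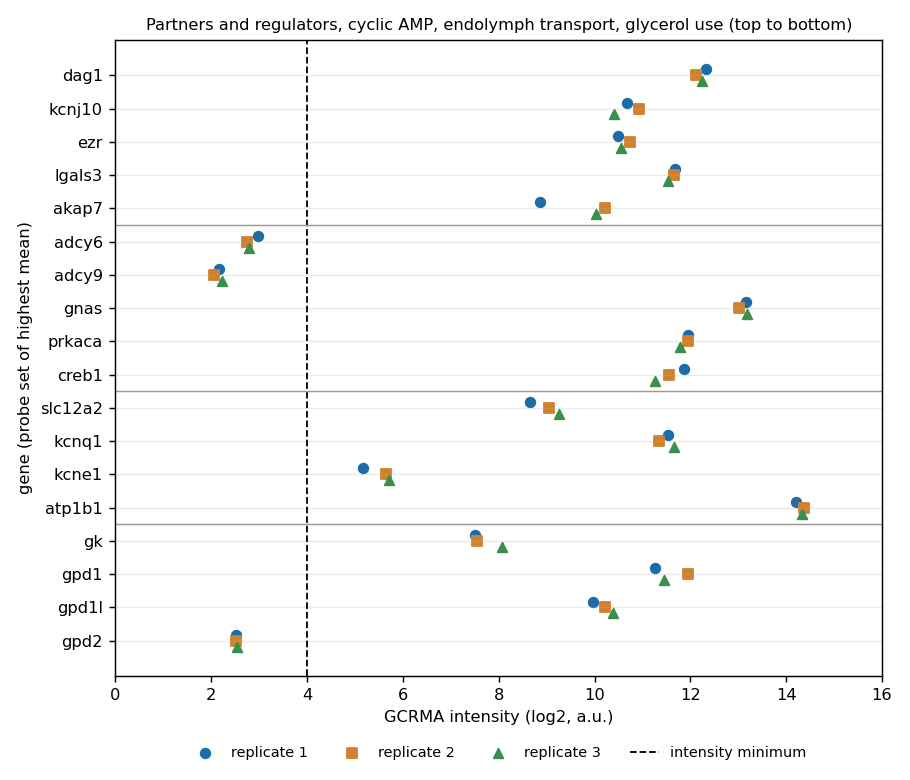
GCRMA intensity (log2, a.u.) on the 3 replicate arrays for up to 5 genes of each of the partner and regulator, cyclic AMP, endolymph transport and glycerol lists (the first 4 measured and the one of largest range), each at its Xl-PSID of highest mean, with the intensity minimum of 4 dashed. The points of adcy6, adcy9 and gpd2 lie left of the line and those of the other genes drawn lie right of it. Atp6v1b1, atp6v0a4 and lipe, not detected, are not drawn.

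Skin markers were set beside aqp3, which is abundant in mammalian epidermis. Of 9 epidermal markers 6 were measured and 3 detected, which were the keratins krt19 (15.35 ± 0.04) and krt61 (13.15 ± 0.24, the largest range) and the uroplakin upk3a (6.55 ± 0.13). Their log2 values summed to 35.0, 35.4 and 34.7 on replicates 1, 2 and 3. The epidermal regulators tp63 and grhl3 and the keratin krt12.4 (2.20 ± 0.01) were not detected. Skin gland peptides, with 5 of 6 measured and all 5 detected, were lowest on replicate 3, with sums of 45.6, 46.8 and 31.7. The share of all detected Xl-PSIDs lowest on that array was not computed. By limma 4 of the 5 passed. Xenoxin1, of largest range, read 7.49, 7.99 and 1.89 and did not pass (adjusted p = 0.306, limma). The other named peptides xt6l (10.35, 10.40 and 7.22), levi.2 (8.34, 8.41 and 5.25) and pgla (8.98, 9.43 and 7.09) had the same array lowest. On that array aqp3.L was at 13.87 and aqp3-a at 10.51. The part of skin in the aqp3 signal was not tested.

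The RefSeq table lists 18 genes whose symbol begins with aqp, and 6 of them were matched to the members by gene ID. The other 12, which are aqp2.L, aqp3.S, aqp4.L, aqp4.S, aqp5.S, aqp7.L, aqp7.S, aqp8.L, aqp9.L, aqp10.L, aqp-x3 and aqp-xl2, were not matched by ID and were not analysed here, except that aqp3-a may stand for aqp3.S. No Xl-PSID with several symbols bore an aquaporin name.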

How the data were processed

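The authors hybridised RNA of 3 pooled juvenile inner ear replicates to GeneChip arrays. The authors preprocessed the scans with GCRMA in JMP Genomics and deposited 1 log2 intensity per Xl-PSID and array. GCRMA corrects background from probe sequence and puts unexpressed Xl-PSIDs near a floor of 2. The sources used here do not say whether larval arrays were normalized together with these.

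Of 32635 rows, 96 controls were left out. Names came from the platform annotation (15495 Xl-PSIDs with 1 symbol, 279 with several, 16765 with none) and the RefSeq table of Xenopus_laevis_v10.1, used for names and neighbours only. As no build is named for the array, no coordinates are given, and no sequences were used.

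Detection was a mean of 4 or more. It was also tested with limma 3.58.1 (R 4.3.3), one-sided, over 32539 Xl-PSIDs, at an adjusted p of 0.05. Intervals are at 95% from the moderated fit. The fit was tested on simulated data. Summaries used pandas 2.3.3 in Python 3.11.15. Members and 16 gene lists were chosen with earlier results of these data known. Named genes were all members and, per list, the first 4 measured and the one of largest range, each at its Xl-PSID of highest mean. A few further list genes below the minimum were named after their values were seen. Alternatives were other minimums, variance models, quantile normalization, Xl-PSID rules and leaving out replicates.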

Additional observations from a re-analysis of the deposited data

How the results depend on the processing

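The count of 5 detected aquaporin Xl-PSIDs, the 5 passing limma and the 3 detected genes were the same with quantile normalization, RefSeq symbols, minimums of 5 and 6, each replicate left out and mip counted as a member, an alternative chosen after seeing the data. The limma count was also the same with other variance models. At a minimum of 3, 6 Xl-PSIDs and 4 genes were detected, because aqp2.S (a) at 3.12 then lay above it. Without Xl-PSIDs that can match several transcripts, which removed aqp1.L and aqp3-a from those detected, 3 Xl-PSIDs were detected and 3 passed limma, for 2 genes. With every Xl-PSID of a gene required, 1 gene (aqp3) was detected. No member had a range of 1.5, 1 had a range of at least 1 and 3 of at least 0.5. Over 10 settings the adjusted p of the detected members stayed between 1.33e-06 and 0.00538. Of 97 measured genes over all lists 78 were detected, 73 at a minimum of 6 and 77 to 78 with a replicate left out. No paired analysis was possible because all arrays form 1 group.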

Other observations

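Markers of other tissues known for aquaporins were also looked at. At least 1 Xl-PSID was detected for 80.2% of all named genes, and each list is short. The counts here and in the next paragraph are therefore no result about a tissue. Of 8 kidney tubule markers 3 were measured, and none was detected: the glucose transporter slc5a2 (1.92 ± 0.01), which had the largest range, the anion transporter slc22a6 (1.92 ± 0.00) and the transcription factor pax8 (1.95 ± 0.00). Of 9 lens markers 5 were measured and 3 detected, with the crystallins cryba1 at 9.14, 10.09 and 9.75, cryaa at 7.43, 7.69 and 8.10 and crybb1, of largest range, at 6.12, 3.91 and 4.99 on replicates 1, 2 and 3. Crybb1 did not pass limma (adjusted p = 0.149). The lens filament bfsp1 (2.02 ± 0.00) was at the floor, as was mip. Of 5 fat cell markers, all measured, the fatty acid binding protein fabp4 (5.93, 7.91 and 6.96), of largest range, and the lipid droplet gene cidec (6.91 ± 0.07) were detected, while plin1 (1.92 ± 0.00) and adipoq (2.08 ± 0.07) were not.

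Skeletal muscle markers were all detected (8 of 8). The sarcomere genes acta1 (10.68, 10.56 and 12.34), mylpf (9.78, 9.52 and 11.04), tnnc2 (8.05, 7.76 and 9.90) and actn3 (6.50, 6.51 and 9.47), which had the largest range, were highest on replicate 3, as were 6 of the 8, while the calcium pump atp2a1 and the myosin myh4 were lowest there. Of all detected Xl-PSIDs 33.5% were highest on replicate 3. Of 7 Schwann cell markers 4 were measured and 3 detected, the myelin genes pmp22 (14.73 ± 0.13) and mbp (14.27 ± 0.14) and the regulator sox10 (11.20 ± 0.15), of largest range, while egr2 (1.92 ± 0.00) was not.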
